A study of Mus musculus with 12 samples.

Results

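The rod shutoff genes studied here are the 6 genes Sag, Grk1, Rcvrn, Rgs9, Rgs9bp and Gnb5, chosen by gene symbol as the genes of rod arrestin, the rod receptor kinase, recoverin and the RGS9 complex, out of 52962 genes in the deposited table. Each symbol had 1 entry, and all 6 passed the filter on low counts. RNA was measured in 12 libraries of mouse rods from retinas electroporated with plasmids, dissociated at postnatal day 8 and picked by hand as intact GFP-positive cells, with 50 to 100 cells a library. The 4 groups held 3 libraries each: shRNA mCsnk2a1, a short hairpin RNA against mouse Csnk2a1; shRNA Control, a control hairpin; pcDNA4c mCsnk2a1, an expression vector with mouse Csnk2a1; and pcDNA4c Control, the vector as control. Csnk2a1 encodes a catalytic subunit of protein kinase CK2, and the series asks what the kinase does to expression under NRL, which drives rod fate as a transcription factor. All groups share electroporation and GFP selection. The mouse strain, the promoter of each construct and whether the 3 samples of a group came from separate animals are not given in the sources used here, so every p-value reflects only how these samples spread, which may be technical.

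A rod answers light when its receptor activates transducin, which switches on the cGMP phosphodiesterase and closes the cation channel. Shutoff happens at both ends of that cascade. The receptor kinase GRK1 phosphorylates the active receptor, rod arrestin (Sag) caps the phosphorylated receptor, and recoverin (Rcvrn), a calcium sensor, restrains the kinase while calcium is high. Transducin is turned off when RGS9 speeds its GTP hydrolysis. RGS9 works in a complex with the long form of the G protein subunit beta 5 (Gnb5) and the membrane anchor R9AP (Rgs9bp), and the partners stabilise each other as proteins.

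Rgs9 and Gnb5 each encode a retinal form and another form. Transcripts were assigned to the forms by their annotation, and their TPM were not computed from the coding stretches shown here alone. The coding end of the retinal form RGS9-1 and the matching stretch of the longer form RGS9-2, known from the striatum, are shown from 15 shared bases onward, with the bases of each form's own in capitals (GRCm38, chromosome 11, minus strand).
RGS9-1: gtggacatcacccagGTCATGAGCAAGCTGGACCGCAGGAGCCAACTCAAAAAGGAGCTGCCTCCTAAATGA
RGS9-2: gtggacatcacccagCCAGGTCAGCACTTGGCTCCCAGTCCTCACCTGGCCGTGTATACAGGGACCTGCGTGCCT
The forms share 1398 coding bases. RGS9-1 ends after 57 bases of its own, all shown, and RGS9-2 has 630, of which 60 are shown. For Gnb5 the difference lies at the coding start (GRCm38, chromosome 9, plus strand), where the long retinal form carries 126 bases, in capitals, ahead of the start codon of the short form.
Gnb5 long: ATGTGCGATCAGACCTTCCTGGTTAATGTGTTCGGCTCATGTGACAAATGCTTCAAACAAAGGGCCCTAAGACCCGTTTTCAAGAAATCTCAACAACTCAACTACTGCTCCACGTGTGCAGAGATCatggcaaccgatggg
Gnb5 short: atggcaaccgatggg
The short form has 0 coding bases of its own, and the forms share 1062.

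Because the series concerns NRL, the RefSeq promoter windows of the shutoff genes (GRCm38.p6, 250 bases before to 50 after the start) were searched on both strands for TGCTGA, the core of the NRL response element, and for GGATTA, a core motif of its partner CRX. Windows were found for 4 of the 6 genes, Sag, Grk1, Rgs9 and Gnb5. TGCTGA was in the windows of Sag, Grk1 and Rgs9 and in 19.5% of 32841 promoters, and GGATTA was in those of Sag and Gnb5 and in 7.06%. The 250 bases before the start are shown for Sag and Gnb5, the matched genes with the largest knockdown differences, with the motifs in capitals.
Sag, chr1:87803430-87803679, plus strand: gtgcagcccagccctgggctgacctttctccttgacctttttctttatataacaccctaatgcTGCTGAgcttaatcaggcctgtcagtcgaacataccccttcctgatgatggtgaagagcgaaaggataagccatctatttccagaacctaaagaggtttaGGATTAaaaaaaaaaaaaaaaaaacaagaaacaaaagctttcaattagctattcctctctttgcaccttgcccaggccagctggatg
Gnb5, chr9:75306038-75306287, plus strand: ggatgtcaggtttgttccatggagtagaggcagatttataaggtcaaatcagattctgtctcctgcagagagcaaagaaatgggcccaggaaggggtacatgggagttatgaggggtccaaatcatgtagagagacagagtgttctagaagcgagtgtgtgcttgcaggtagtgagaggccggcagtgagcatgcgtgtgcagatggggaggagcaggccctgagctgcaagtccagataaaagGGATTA
In Sag, TGCTGA began at position -187 and GGATTA at -87 from the start, and in Gnb5 GGATTA began at -6. A match describes the letters in the window and shows no binding.

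The libraries held 1608926 to 3567121 estimated counts, values that share out reads between transcripts and need not be whole. In both arms every mCsnk2a1 library was deeper than every library of its control, and its share of mitochondrial counts was higher, at 10.1% to 11.4% with shRNA mCsnk2a1 against 8.26% to 8.69% in shRNA Control, and 9.54% to 12.8% with pcDNA4c mCsnk2a1 against 7.31% to 8.64% in pcDNA4c Control. Yet fewer genes had a count with pcDNA4c mCsnk2a1, at 16164 to 18782 against 22688 to 25326 in pcDNA4c Control. The shRNA groups overlapped, at 17566 to 20682 genes with shRNA mCsnk2a1 and 20352 to 22146 in shRNA Control. Csnk2a1 averaged 23.4 ± 12.0 CPM (counts scaled to library size) with shRNA mCsnk2a1 and 44.2 ± 31.3 in shRNA Control, and 105 ± 49.5 with pcDNA4c mCsnk2a1 and 46.6 ± 34.7 in pcDNA4c Control (SD, n = 3 each). Neither difference passed (edgeR adjusted p = 0.905 and 0.801), so the terms knockdown and overexpression name the constructs. The shutoff genes held 0.158% of the counts in pcDNA4c mCsnk2a1 1, the lowest of the 12 libraries, against 0.335% and 0.331% in its replicates. The 7 rod markers were all present in each group. Markers of other retinal cells were present too, and their levels stand beside the comparisons below.

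Levels of different genes were compared in TPM, transcript abundances corrected for length and summing to the same total in each library. Sag was the most abundant of the 6 in 12 of 12 libraries, at 298 to 1027 TPM, and Rgs9bp the least in 12 of 12, at 3.89 to 19.6 TPM. In shRNA mCsnk2a1 the order of mean TPM was Sag (921 ± 97.6), Rcvrn (184 ± 53.4), Rgs9 (52.9 ± 11.6), Gnb5 (49.9 ± 29.3), Grk1 (24.8 ± 11.4) and Rgs9bp (9.18 ± 3.40; SD, n = 3), and only Rgs9, Gnb5 and Grk1 overlapped their neighbours. In shRNA Control it was Sag (591 ± 133), Rcvrn (107 ± 8.16), Rgs9 (41.6 ± 15.2), Grk1 (25.3 ± 6.12), Gnb5 (16.4 ± 6.70) and Rgs9bp (11.7 ± 6.08), and the last 4 overlapped from one to the next.

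In pcDNA4c mCsnk2a1 the order was Sag (572 ± 218 TPM), Rcvrn (82.4 ± 19.1), Rgs9 (60.7 ± 25.0), Gnb5 (33.7 ± 14.5), Grk1 (27.1 ± 12.1) and Rgs9bp (11.7 ± 7.65), and all but Sag overlapped their neighbours. In pcDNA4c Control Rgs9 stood second (47.5 ± 5.22 TPM), between Sag (358 ± 71.0) and Rcvrn (35.1 ± 13.8), followed by Grk1 (17.3 ± 4.54), Gnb5 (15.1 ± 3.78) and Rgs9bp (5.73 ± 2.03). There Sag stood clear above and Rgs9bp clear below the other 4, which overlapped from one to the next. Rcvrn, which ranged from 19.3 to 232 TPM, spanned 12.0-fold over the libraries, the widest of the 6, and Rgs9 spanned 2.72-fold.

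**Figure D1:**
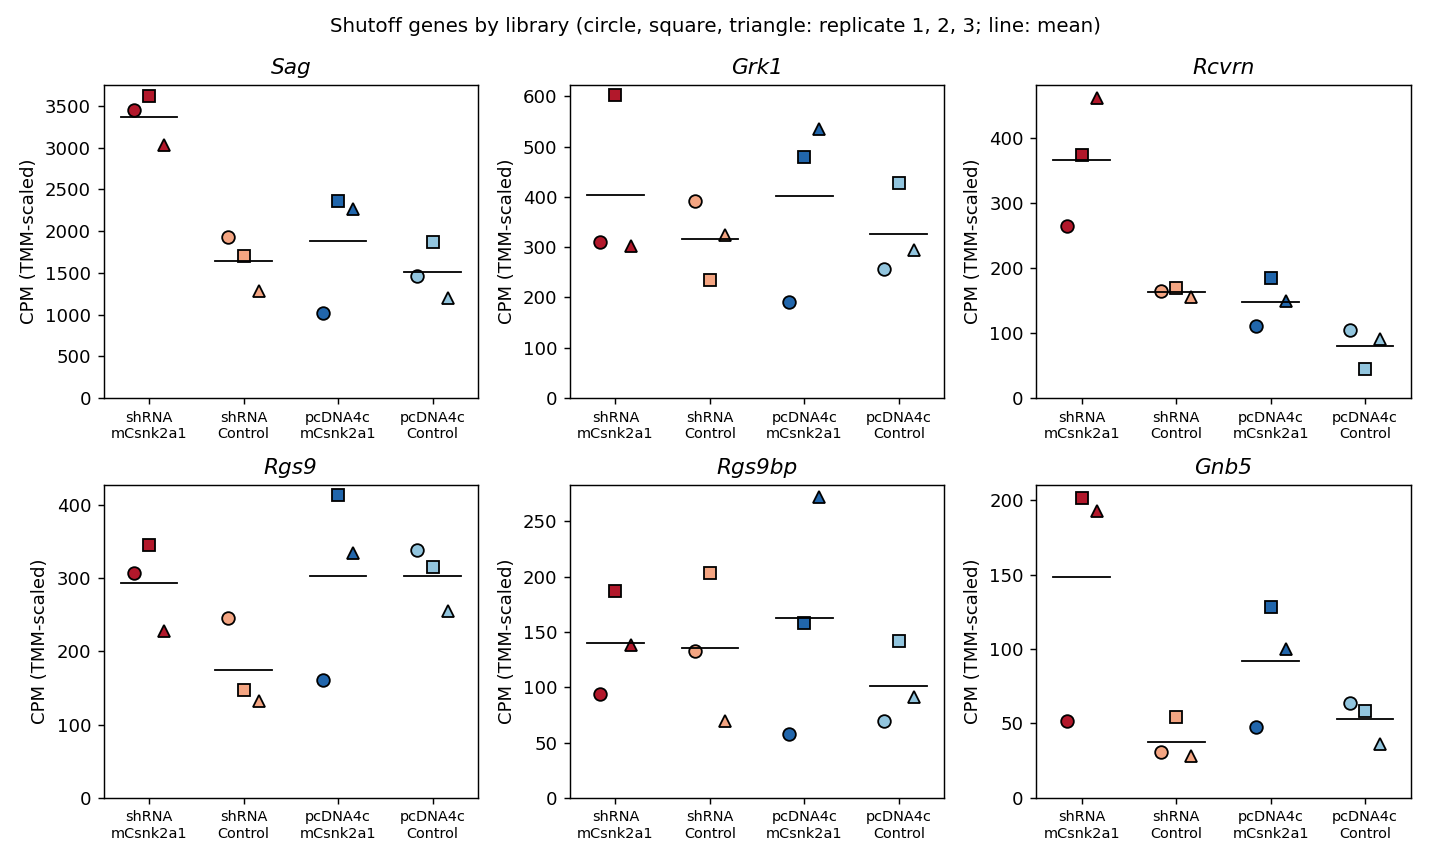
TMM-scaled CPM (y axis, from 0) of each shutoff gene in the 12 libraries by group (x axis), with circle, square and triangle for replicates 1, 2 and 3 and a line at the group mean. Sag and Rcvrn are higher in all 3 shRNA mCsnk2a1 libraries than in any shRNA Control library, and Gnb5 is high in 2 of the 3.

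With the Csnk2a1 hairpin, all 6 shutoff genes had a mean above that of shRNA Control, and none passed the threshold. Sag and Rcvrn were about 2-fold higher with groups that did not overlap, Gnb5 was 3.94-fold higher with 1 library apart, and Rgs9bp differed by 0.04 on the log2 scale. Levels within a gene are given in CPM after TMM scaling (trimmed mean of M-values), and fold changes are log2 values from a quasi-likelihood fit of all 12 libraries in edgeR. Over all 20267 genes tested 0 passed an adjusted p of 0.05 (0.00%), while 1688 had an unadjusted p under 0.05 (8.33%). Of the 6 shutoff genes 3 had an unadjusted p under 0.05, and all 3 were higher, as were 3.23% of all genes. The median log2 fold change was 0.89 over the 6 genes and -0.03 over all genes, of which 48.9% were higher. In bulk libraries fewer cells of a type and less RNA per cell cannot be told apart.

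Sag (chr1:87803680-87845158), the arrestin that caps the phosphorylated receptor, had 3453, 3619.5 and 3032 CPM with shRNA mCsnk2a1, against 1931, 1707 and 1281 CPM in shRNA Control. All 3 hairpin libraries lay above all 3 controls, as held for 5.61% of all genes, while 6.68% separated downward. The log2 fold change was 1.04 (SE 0.29, edgeR p = 0.00223, adjusted p = 0.598; two-sided exact permutation p = 0.1, the smallest that 3 against 3 libraries can give). Without a low-count filter Sag passed (log2 fold change 1.02, edgeR adjusted p = 0.00748), with a fold change close to that of the main fit. Many other genes passed in that setting too, against 0 in the main fit, and their count is given with the other settings below.

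Rcvrn (chr11:67695326-67703333), the calcium sensor that restrains the receptor kinase, had 264, 373 and 460.0 CPM with shRNA mCsnk2a1, against 165, 169 and 155 CPM in shRNA Control. The groups did not overlap, and the spread was wider in the hairpin group (SD 98.2 against 7.00 CPM). The log2 fold change was 1.16 (SE 0.48, edgeR p = 0.0249, adjusted p = 0.598; exact permutation p = 0.1).

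Grk1 (chr8:13405081-13421951), the kinase itself, had 309, 602 and 302 CPM with shRNA mCsnk2a1, against 391, 235 and 323 CPM in shRNA Control. Its groups overlapped, and its mean was higher through 1 library, shRNA mCsnk2a1 2. The log2 fold change of 0.35 (SE 0.45, edgeR adjusted p = 0.970) turned to -0.05 without that library.

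Of the RGS9 complex, Rgs9 (chr11:109225355-109298129), the GTPase accelerator, had 306, 344 and 227 CPM with shRNA mCsnk2a1, against 245, 146 and 132 CPM in shRNA Control. The lowest hairpin library lay below the highest control, and the log2 fold change was 0.74 (SE 0.45, edgeR adjusted p = 0.690). Rgs9bp (chr7:35578993-35585582), the anchor, had 93.9, 187 and 138 CPM with shRNA mCsnk2a1, against 133, 204 and 69.8 CPM in shRNA Control. Its ranges overlapped almost wholly, and its log2 fold change had a 95% interval of -1.16 to 1.25 and changed sign with the scaling. Gnb5 (chr9:75306288-75345876), the beta subunit partner of RGS9, had 51.5, 202 and 193 CPM with shRNA mCsnk2a1, against 30.6, 54.2 and 28.4 CPM in shRNA Control. Libraries 2 and 3 of the hairpin group stood above every control and library 1 among them. The log2 fold change was 1.98 (SE 0.70, edgeR p = 0.0110, adjusted p = 0.598; exact permutation p = 0.2).

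Other retinal cell markers moved in the same libraries. Summed rod markers were 4673 to 6697 CPM with shRNA mCsnk2a1 and 3137 to 3991 CPM in shRNA Control. The 10 bipolar markers summed to 793 to 1959 CPM against 451 to 629.97 CPM, and the 8 Müller glia markers to 846 to 1227 CPM against 430.4 to 747 CPM, with no gene at 0 in either group. The 9 cone markers summed to 248 to 273 CPM with shRNA mCsnk2a1 and 139.6 to 189 CPM in shRNA Control, where Opn1sw was at 0, and the 10 amacrine, horizontal and ganglion cell markers to 207 to 312 CPM against 113 to 152 CPM, with Slc17a6 at 0 in shRNA Control. The 10 microglia markers summed to 2.46 to 37.9 CPM against 58.9 to 65.3 CPM, with 5 and 4 of them at 0, C1qa and Tyrobp in both groups. In the fit 7 of 7 rod, 8 of 10 bipolar and 7 of 8 Müller glia markers were higher with the hairpin. So were 6 of 8 cone and 6 of 9 amacrine, horizontal and ganglion cell markers tested. Of 10 microglia markers 2 were higher and 6 lower. The part of these cells in the shutoff gene differences was not tested.

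**Figure D2:**
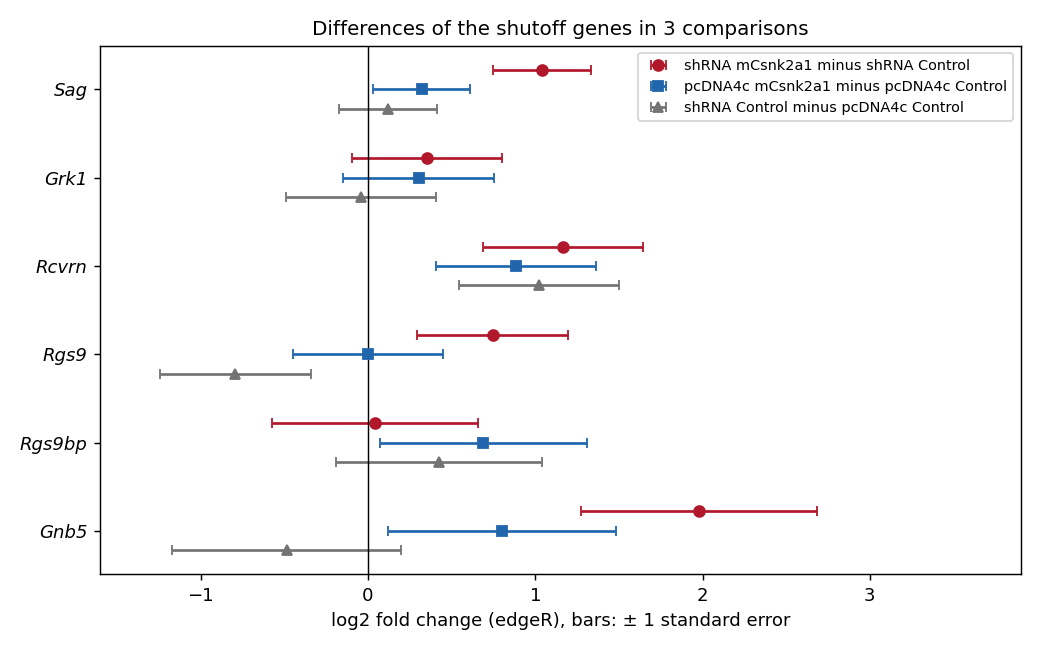
log2 fold change from edgeR (x axis) of the 6 shutoff genes (y axis) for shRNA mCsnk2a1 over shRNA Control, pcDNA4c mCsnk2a1 over pcDNA4c Control and shRNA Control over pcDNA4c Control, with bars of 1 standard error either side. Sag lies at 1.04 with the hairpin and 0.32 with the vector, and Rcvrn lies between 0.88 and 1.16 in all 3 comparisons, the one between the controls included.

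With the Csnk2a1 vector the CPM differences were smaller than with the hairpin, apart from Rgs9bp. In CPM Rcvrn was the only one of the 6 whose groups did not overlap. On the TPM scale the vector fold was above the hairpin fold for all but Gnb5, by 0.035 on the log2 scale for Sag and 0.0047 for Rgs9. Less the 0.44 by which the medians over all genes differed there, 3 of 6 stayed above 0, Rcvrn by only 0.012. Sag (-0.41), Rgs9 (-0.44) and Gnb5 (-0.89) did not. Those medians carried a pseudocount of 1 TPM and the folds of the 6 genes none, so the count of 3 is approximate. None of the 6 genes passed, where 20 of 20267 did (0.0987%), and none had an unadjusted p under 0.05, against 8.73% of all genes, 2.15% higher. All 6 fold changes were at or above 0, with a median of 0.50 against -0.16 over all genes, of which 45.1% were higher. Library pcDNA4c mCsnk2a1 1 was the lowest of its group for every shutoff gene.

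Sag had 1023, 2364 and 2264 CPM with pcDNA4c mCsnk2a1, against 1458, 1869.9 and 1199 CPM in pcDNA4c Control. Libraries 2 and 3 of the vector group lay above every control and library 1 below every control, and the log2 fold change was 0.32 (SE 0.29, edgeR adjusted p = 0.886). It was 0.67 without library 1, over 1.5 times as large, and did not pass there either. Rcvrn had 110.2, 185 and 149 CPM with pcDNA4c mCsnk2a1, against 105, 45.0 and 90.9 CPM in pcDNA4c Control. The gap between the nearest libraries was small beside the spread, the share of genes whose groups separate upward was 3.73% (downward 11.8%), and the log2 fold change was 0.88 (SE 0.48, edgeR p = 0.0792, adjusted p = 0.601; exact permutation p = 0.1).

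Grk1 had 192, 479.6 and 535 CPM with pcDNA4c mCsnk2a1, against 256, 427 and 295 CPM in pcDNA4c Control, a log2 fold change of 0.30 (SE 0.45, edgeR adjusted p = 0.974). Rgs9 had 161, 413 and 334 CPM with pcDNA4c mCsnk2a1, against 338, 315 and 254 CPM in pcDNA4c Control, and the group means were equal at 303 CPM. Rgs9bp had 57.7, 158 and 273 CPM with pcDNA4c mCsnk2a1, against 69.9, 142 and 90.9 CPM in pcDNA4c Control, and Gnb5 had 47.7, 128 and 100.0 CPM, against 64.0, 58.5 and 36.0 CPM. In all 4 genes the vector group spanned the control group or overlapped it. The log2 fold changes were 0.69 (SE 0.62) for Rgs9bp and 0.80 (SE 0.68) for Gnb5 (edgeR adjusted p = 0.882 and 0.858). With 1 library left out Rgs9bp ran from 0.13 (without pcDNA4c mCsnk2a1 3) to 1.14 (without pcDNA4c mCsnk2a1 1), Grk1 from 0.081 to 0.69 without the same libraries, and Gnb5 from 0.51 (without pcDNA4c mCsnk2a1 2) to 1.16.

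Marker sums in this arm were 3013 to 6617 CPM for rods with pcDNA4c mCsnk2a1 and 3702 to 4144 CPM in pcDNA4c Control, 772 to 1027 CPM against 178 to 311 CPM for bipolar cells (Gng13 at 0 in the control), and 510.0 to 588 CPM against 319 to 449 CPM for Müller glia. Cone markers summed to 70.9 to 103 CPM with pcDNA4c mCsnk2a1, where Opn1mw and Opn1sw were at 0, and to 144 to 213 CPM in pcDNA4c Control. Amacrine, horizontal and ganglion cell markers summed to 117 to 366 CPM against 131 to 201 CPM. Microglia markers summed to 36.3 to 83.5 CPM with pcDNA4c mCsnk2a1, with C1qa, C1qb, Lyz2, Mpeg1 and Tyrobp at 0, and to 723 to 887 CPM in pcDNA4c Control. In the fit 6 of 7 rod, 9 of 10 bipolar and 6 of 8 Müller glia markers were higher with the vector. So were 1 of 8 cone, 4 of 9 amacrine, horizontal and ganglion cell and 0 of 10 microglia markers tested. The part of these cells in the shutoff gene values was not tested.

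The overexpression effect minus the knockdown effect was tested in the same fit. It passed for none of the 6 genes and for 4 of all genes tested (0.0197%). None of the 6 had an unadjusted p under 0.05, against 8.34% of all genes, 3.19% above 0, and 1 of 6 values was above 0, against 47.0% of all genes. On TPM, where the medians over all genes in the 2 arms lay 0.44 apart, 5 of 6 were above 0, all but Gnb5, and 3 of 6 were above 0.44, Rcvrn by only 0.012. On coding transcripts 6 of 6 were above 0, and neither TPM difference was tested. The difference was -0.72 for Sag (SE 0.41, edgeR adjusted p = 0.667), with an interval of -1.53 to 0.09, and -1.18 for Gnb5 (SE 0.96; -3.07 to 0.71), and 0.65 for Rgs9bp (SE 0.87). It was -0.05 for Grk1, -0.28 for Rcvrn and -0.74 for Rgs9. Without pcDNA4c mCsnk2a1 1 it was -0.38 for Sag, -0.40 for Rgs9 and 1.08 for Rgs9bp, and without pcDNA4c mCsnk2a1 3 it was 0.075 for Rgs9bp. With 1 library left out Rcvrn ran from -0.58, without pcDNA4c Control 2, to -0.02, without pcDNA4c Control 1. The 95% intervals of the fit hold differences of several-fold for Gnb5 and Rgs9bp, so like effects in the 2 arms were not shown.

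The 2 control groups, which differ by vector, set a yardstick. No shutoff gene passed between shRNA Control and pcDNA4c Control, where 14 genes did (0.0691%). An unadjusted p under 0.05 was reached by 1 of the 6, Rcvrn, and by 4.21% of all genes, 1.44% higher, and 3 of 6 fold changes were above 0, against 50.0% of all. Rcvrn had 163 ± 7.00 CPM in shRNA Control and 80.2 ± 31.3 CPM in pcDNA4c Control without overlap. The log2 fold change was 1.02 (SE 0.48, edgeR p = 0.0454, adjusted p = 1; exact permutation p = 0.1). On the CPM scale that is close in size to its difference with the hairpin, and 5.13% of genes separated in that direction. Rgs9 had 175 ± 61.6 CPM in shRNA Control and 303 ± 43.3 CPM in pcDNA4c Control, also without overlap (log2 fold change -0.79, SE 0.45), in the direction in which 8.56% of genes separated. Sag (0.12), Grk1 (-0.04), Rgs9bp (0.43) and Gnb5 (-0.49) overlapped. Marker sums stood apart between the controls too, at 451 to 629.97 CPM in shRNA Control and 178 to 311 CPM in pcDNA4c Control for bipolar cells, and at 58.9 to 65.3 CPM against 723 to 887 CPM for microglia. All 10 microglia markers were lower in shRNA Control and 1 passed, Mpeg1 (edgeR adjusted p = 0.00681), while 8 of 10 bipolar markers were higher there. So were 7 of 8 Müller glia, 1 of 8 cone and 5 of 9 amacrine, horizontal and ganglion cell markers tested, in lists whose sums overlapped between the controls. Of the rod markers 2 of 7 were higher. Summed rod markers were 3137 to 3991 CPM in shRNA Control and 3702 to 4144 CPM in pcDNA4c Control. Their part in the difference of Rcvrn was not tested.

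The size of these differences depends on the scale. On TPM the median log2 ratio over 19990 genes was -0.31 for shRNA mCsnk2a1 over shRNA Control, 0.13 for pcDNA4c mCsnk2a1 over pcDNA4c Control and 0.44 between the controls. These medians used a pseudocount of 1 TPM, and the folds of the 6 genes below used none. With the hairpin Sag was 1.56-fold and Rcvrn 1.71-fold higher on TPM, both without overlap (exact permutation p = 0.1 each), as held for 3.20% of genes. Grk1 and Rgs9bp were lower on that scale with the hairpin, at 0.983 and 0.782 of the shRNA Control mean, while Rgs9 was 1.27-fold and Gnb5 3.04-fold higher with overlap. With the vector Rcvrn was 2.35-fold and Gnb5 2.23-fold higher on TPM, both without overlap (exact permutation p = 0.1 each), as held for 6.45% of genes. The vector groups overlapped for Sag, Grk1, Rgs9 and Rgs9bp, with log2 ratios of mean TPM of 0.67, 0.65, 0.35 and 1.04. So on TPM the vector fold was above the hairpin fold for 5 of the 6 genes, by 0.0047 on the log2 scale for Rgs9, and below it for Gnb5. Between the controls Rcvrn was 3.06-fold higher in shRNA Control, more than with the hairpin on this scale, and Sag 1.65-fold, both without overlap, as held for 11.7% of genes. Rgs9 overlapped there (0.875-fold), unlike on the CPM scale.

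A ratio within a library does not depend on the scaling, apart from the pseudocount used here, which weighs most on genes of low TPM. Each shutoff gene was set against the summed TPM of 6 genes of transducin and the cGMP phosphodiesterase (Gnat1, Gnb1, Gngt1, Pde6a, Pde6b and Pde6g), and 18 such differences were tested by exact permutation on log2 ratios with a pseudocount of 1 TPM. With the hairpin all 6 genes overlapped, with differences of 0.028 for Sag, -0.71 for Grk1, 0.097 for Rcvrn, -0.26 for Rgs9, -0.89 for Rgs9bp and 0.73 for Gnb5. Of all genes 25.7% separated downward and 0.850% upward there. With the vector the log2 ratio was lower without overlap for Sag (difference -0.35) and Rgs9 (-0.70; exact permutation p = 0.1 each), while Grk1 (-0.42), Rcvrn (0.31), Rgs9bp (-0.20) and Gnb5 (0.079) overlapped. With the vector 29.3% of all genes separated downward and 0.895% upward, and the 2 of 6 are not taken as particular to the shutoff genes. Between the controls Rgs9 was lower (-0.93; 14.8% of genes) and Rcvrn higher (0.97; 2.81%), both without overlap (exact permutation p = 0.1 each).

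**Figure D3:**
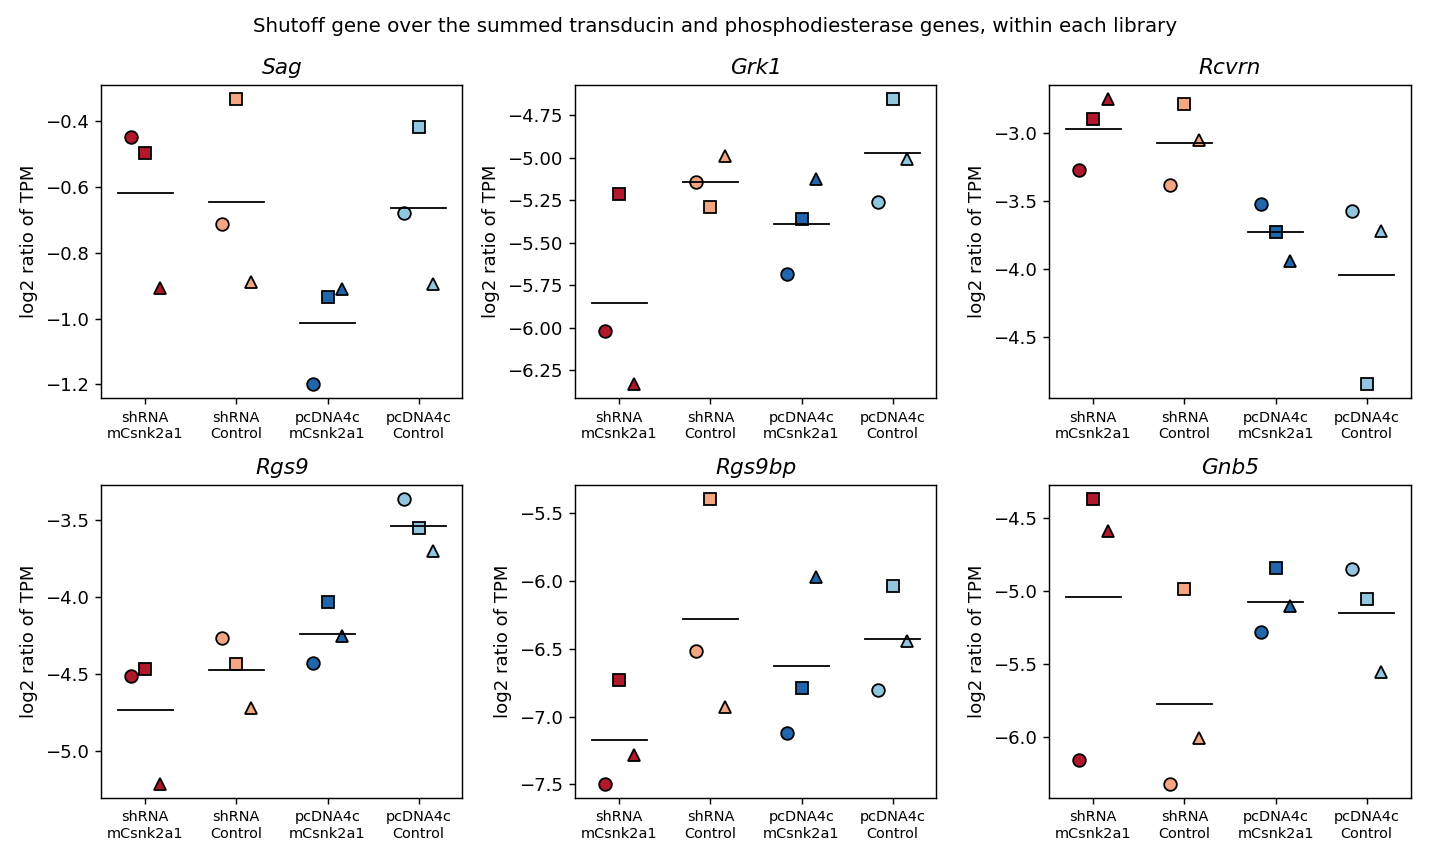
log2 of each shutoff gene's TPM (plus 1) over the summed TPM of 6 transducin and phosphodiesterase genes (y axis, which does not start at 0) in the 12 libraries by group (x axis), symbols as replicates 1, 2 and 3, line at the mean. With pcDNA4c mCsnk2a1 all 3 libraries lie below every pcDNA4c Control library for Sag and Rgs9, with differences of -0.35 and -0.70.

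Ratios between the shutoff genes themselves, chosen with earlier results known, gave 9 tests. Gnb5 to Rgs9bp was 5.11 ± 2.17 with shRNA mCsnk2a1 and 1.51 ± 0.464 in shRNA Control, without overlap (exact permutation p = 0.1), as held for the ratio of 3.38% of genes to Rgs9bp. Gnb5 was summed here over all its transcripts. A noncoding retained-intron transcript held 32.2% to 66.6% of that sum with shRNA mCsnk2a1, against 0% to 8.74% in shRNA Control. The ratio was not tested on coding Gnb5 alone, whose TPM overlapped between these groups. Rgs9 to Rgs9bp was 6.24 ± 2.46 with shRNA mCsnk2a1 and 4.11 ± 1.83 in shRNA Control (p = 0.5 by the exact permutation test), and with the vector neither separated (p = 1 and 0.4). Rgs9 to Rgs9bp did separate the controls, at 4.11 ± 1.83 in shRNA Control and 9.10 ± 3.80 in pcDNA4c Control (exact permutation p = 0.1), as did the ratio of 9.29% of genes in that direction. Sag to Grk1 was 40.8 ± 12.2 with shRNA mCsnk2a1 and 24.2 ± 7.61 in shRNA Control, with overlap (exact permutation p = 0.2), and the pcDNA4c groups overlapped too (exact permutation p = 0.9).

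By transcript, most of the Gnb5 difference with the hairpin lay outside its coding transcripts. The retained-intron transcript Gnb5-203 (chr9:75334169-75337626, 633 bases) had 6.52, 22.3 and 42.7 TPM with shRNA mCsnk2a1, against 0.728, 2.11 and 0 TPM in shRNA Control. All 3 hairpin libraries were above all 3 controls, and the transcript held 32.2% to 66.6% of Gnb5 TPM against 0% to 8.74%. Of 49224 transcripts with TPM above 0 in at least 3 libraries 2.13% separated upward, and of 27566 with another such transcript in their gene 2.85% did so in their share. Coding Gnb5 transcripts summed to 9.69, 35.2 and 20.0 TPM with shRNA mCsnk2a1, against 12.6, 22.0 and 11.8 TPM in shRNA Control, which overlapped (1.40-fold, exact permutation p = 0.7), while all Gnb5 transcripts together differed 3.04-fold. With the vector most of it lay in the coding transcripts. Coding Gnb5 had 18.0, 25.6 and 27.6 TPM with pcDNA4c mCsnk2a1, against 11.2, 13.1 and 6.25 TPM in pcDNA4c Control, without overlap (2.33-fold, exact permutation p = 0.1), as held for the coding transcripts of 7.76% of 15574 genes. The retained-intron transcript had 0, 2.14 and 7.80 TPM with pcDNA4c mCsnk2a1, against 2.66, 0.462 and 2.88 TPM in pcDNA4c Control, and overlapped. The split into coding and other transcripts was chosen after the values were seen, and a transcript's TPM is an estimate wherever transcripts share sequence.

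The retinal form of Gnb5, with the 126-base start shown above, exceeded the short form in 10 of 12 libraries, and the short form was at 0 in 3. The exceptions were shRNA Control 1 (0.429 against 12.2 TPM) and pcDNA4c mCsnk2a1 1 (3.72 against 14.3 TPM). Likewise RGS9-1 exceeded RGS9-2 in 10 of 12 libraries, with a median of 21.8 against 8.16 TPM, and RGS9-2 was at 0 in 2. The exceptions were shRNA mCsnk2a1 1 (9.69 against 35.4 TPM) and shRNA Control 1 (22.1 against 29.1 TPM).

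RGS9-1 held 18.3%, 36.8% and 42.6% of Rgs9 TPM with shRNA mCsnk2a1, against 37.6%, 74.6% and 56.6% in shRNA Control, which overlapped. It held 61.4%, 66.8% and 61.8% with pcDNA4c mCsnk2a1, against 50.9%, 43.8% and 51.5% in pcDNA4c Control, where every vector library was above every control, as held for 3.07% of transcripts. In TPM, RGS9-1 averaged 17.0 ± 7.06 with shRNA mCsnk2a1 and 22.0 ± 4.81 in shRNA Control, and 38.9 ± 17.3 with pcDNA4c mCsnk2a1 and 23.1 ± 2.94 in pcDNA4c Control, with overlap in both arms. No test was run on shares.

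**Figure D4:**
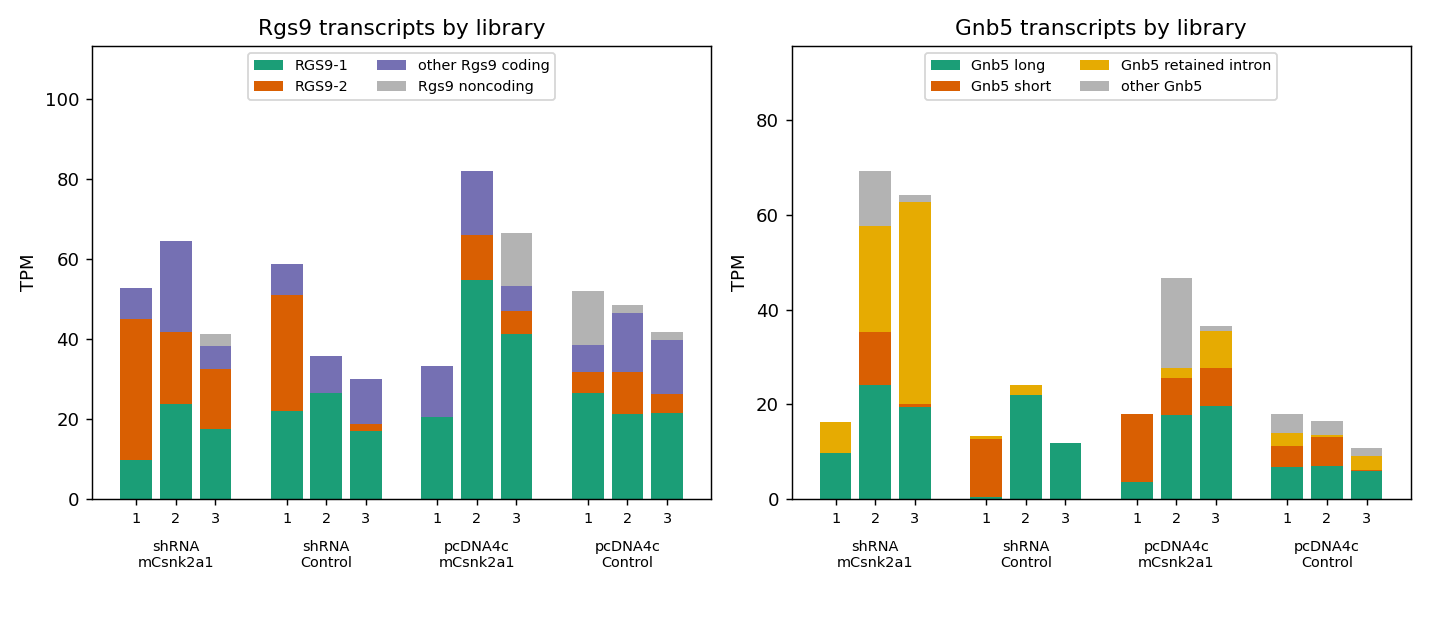
Stacked TPM (y axis, from 0) of Rgs9 transcripts (left) and Gnb5 transcripts (right) in each library (x axis, replicates 1 to 3 by group), coloured by form. The retained-intron part of Gnb5 reaches 22.3 and 42.7 TPM in shRNA mCsnk2a1 2 and 3 and stays at or below 7.80 TPM in the libraries of the other 3 groups.

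Over the 12 libraries the 5 genes most like Sag in log2 CPM, among 3708 genes of at least 50 CPM, included the noncoding Snhg20 (Pearson r = 0.89), the splicing factor Sf3a2 (0.84) and the disc rim protein Prph2 (0.84). With Nrl the correlation of Sag was 0.44. The nearest to Grk1 were Yae1d1 (0.89) and Acsl1 (0.86), to Rcvrn Atp5h (0.93) and the bipolar cell receptor Grm6 (0.92), and to Rgs9 Smarcc2 (0.91) and Pigt (0.89). Nearest to Rgs9bp were Cct6a (0.87) and Tdrd7 (0.86), and to Gnb5 Wdr26 (0.91) and Hif1a (0.88). Among the 6 genes themselves the highest r was 0.70, between Sag and Gnb5, and the lowest 0.02, between Rcvrn and Rgs9. The points share libraries and depth, so these coefficients describe similarity only.

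In the rest of the pathway none of the genes given here passed in any comparison. All 6 transducin and phosphodiesterase genes were higher with the hairpin, with a median log2 fold change of 1.04 and 4 at an unadjusted p under 0.05. Smallest in p were the transducin subunits Gngt1 (1.18, SE 0.33) and Gnat1 (1.73, SE 0.49; edgeR adjusted p = 0.598 for both). With the vector 5 of 6 were higher (median 0.52), led by the transducin beta subunit Gnb1 (1.20, SE 0.36, edgeR adjusted p = 0.514) and the phosphodiesterase subunit Pde6b (0.80, SE 0.39). Of the cGMP channel and calcium feedback genes 7 were tested. All 7 were higher with the hairpin (median 1.09, 3 at an unadjusted p under 0.05), led by the exchanger Slc24a1 (2.90, SE 0.77) and phosducin Pdc (0.57, SE 0.26). With the vector 4 were higher and 3 lower, and the channel subunit Cnga1 (1.03, SE 0.47) and Pdc (0.46, SE 0.26) had the smallest p. For the difference of the arms Slc24a1 (-2.40, SE 1.03) and Guca1a, the calcium sensor of guanylate cyclase, had the smallest p here, and Gngt1 (-0.94, SE 0.45) and Pde6a (-1.64, SE 0.82) among the transducin and phosphodiesterase genes. Guca1a had 20.4 ± 7.60 CPM with shRNA mCsnk2a1 and 0.691 ± 1.20 CPM in shRNA Control, and 0 with pcDNA4c mCsnk2a1 and 0.554 ± 0.960 CPM in pcDNA4c Control. Between the controls the smallest p were those of Gngt1 (0.24) and Gnat1 (0.25), and of Slc24a1 (-1.12) and Gucy2e (-0.72).

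Relatives of the shutoff genes did not pass either. Their lists share Gnb1, counted under the complex, and Guca1a, counted under the calcium sensors, with the rod genes just described. Of 3 other arrestins, 1 was higher with the hairpin and 1 with the vector. Arrb2, a widely expressed arrestin, had 0.103 ± 0.178 CPM, 1 count in all, with shRNA mCsnk2a1 and 8.35 ± 8.56 CPM in shRNA Control, and 6.67 ± 7.49 CPM with pcDNA4c mCsnk2a1 and 34.4 ± 28.7 CPM in pcDNA4c Control. Arrb1 differed by -0.82 (SE 1.33) with the hairpin and 0.71 (SE 1.32) with the vector, and the cone arrestin Arr3 by -0.75 (SE 2.35) between the controls. Of 5 other receptor kinases 2 were higher with the hairpin and 0 with the vector. Grk2 had 0.104 ± 0.181 CPM, 1 count in all, with pcDNA4c mCsnk2a1 and 44.3 ± 32.0 CPM in pcDNA4c Control (edgeR adjusted p = 0.296). It had 26.4 ± 39.1 CPM with shRNA mCsnk2a1 and 10.7 ± 10.9 CPM in shRNA Control, and the difference between the arms had an adjusted p of 0.399 in edgeR. Grk5 differed by -1.63 (SE 1.47) and Grk4 by -0.55 (SE 0.50) with the hairpin, Grk5 by -1.10 (SE 1.47) with the vector, Grk3 by -1.71 (SE 2.28) between the arms, and Grk5 by 2.19 (SE 1.51) between the controls.

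Of 7 neuronal calcium sensors tested 5 were higher in each arm. Ncald differed by 2.98 with the vector (SE 1.09, edgeR adjusted p = 0.568) and 1.34 (SE 1.04) between the controls, and Hpcal1 was at 3.48 ± 4.78 CPM with shRNA mCsnk2a1 and 0 in shRNA Control, at least 6.78-fold higher against a floor of 3 counts over the group. In pcDNA4c Control it was at 4.19 ± 2.19 CPM. Of 10 relatives of the RGS9 complex 6 were higher with the hairpin and 5 with the vector. Gpr179, a membrane anchor of R7 RGS proteins in bipolar cells, differed by 2.44 (SE 1.12) with the hairpin. Gpr158, a related receptor, was at 0 with pcDNA4c mCsnk2a1 and 10.9 ± 10.6 CPM in pcDNA4c Control, at least 31.4-fold lower (edgeR adjusted p = 0.568), and at 10.4 ± 6.71 CPM with shRNA mCsnk2a1 and 1.33 ± 1.82 CPM in shRNA Control. Gnb2 differed by 1.54 (SE 0.82) between the arms and 0.79 (SE 0.58) between the controls. The median log2 fold changes with the hairpin and with the vector were -0.82 and -0.25 for arrestins, -0.28 and -1.10 for kinases, 1.09 and 0.46 for the channel and feedback genes, 1.12 and 0.13 for calcium sensors, and 0.25 and 0.06 for the complex. Guca1a, with 0 counts with the vector and 3 in its control, was left out of the vector medians that follow. Over the remaining 6 genes the fitted medians were 0.46 for the channel and feedback genes and 0.28 for calcium sensors. Computed on summed counts, with the floor in place of 0, the medians in the same order of lists came to -0.86 and -0.12, -0.27 and -1.12, 1.13 and 0.51, 1.24 and 0.37, and 0.23 and -0.11, so the last turned sign.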

How the data were processed

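The authors deposited estimated counts per gene for 12 libraries, TPM per transcript (141196 transcripts, each library summing to the fixed total of that unit) and a normalized signal on a CPM-like scale, used here for 11 libraries. That normalized signal covers 11 libraries as deposited, with no column for pcDNA4c mCsnk2a1 1, so this library could not be used on that scale. Tools named are kallisto 0.45.0 and edgeR 3.28, and the build mm10, per the submitters' processing notes. The authors' annotation release is not stated in these sources. Libraries were made with a stranded total RNA kit for small inputs, per the labels' protocols. Of gene values above 0, 99.9% were not whole (tolerance 1e-06). In 346 genes with 1 transcript the ratio of estimated count to TPM was constant over libraries up to a factor for the library, so counts and TPM are not independent measurements. Of the deposited genes 98.0% were in GENCODE M21 (GRCm38), 99.5% of those at the same position, the 6 shutoff genes included.

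Estimated counts were rounded and fitted in edgeR 4.0.16 (R 4.3.3; filterByExpr with a minimum count of 10, TMM, quasi-likelihood test, 4 group means, all 12 libraries), with Benjamini-Hochberg adjustment over 20267 genes and a threshold of 0.05. The SE is the fold change divided by the square root of F, so it restates the test, and 95% intervals are the fold change plus or minus the normal multiple of it. The common biological coefficient of variation was 1.26. Single values were tested by exact permutation, two-sided, of 3 against 3 libraries, without adjustment over the 6 genes, since the smallest p of 0.1 cannot pass. The edgeR step was tried on simulated data with less spread between libraries than these data have. That trial does not show how the step performs at the spread seen here. PCR copies are not independent molecules, and the number of cells limits precision beside depth.

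The genes, lists and tests were chosen with earlier results of these data known. Some genes planned for the lists, the likeness ranking and the ratio's denominator are not reported here and were left out of the list counts and of that sum. Named are the 6 genes, the 2 genes of smallest p per list and comparison, and the genes most like each shutoff gene (predicted genes and pseudogenes left out; prior count 2). Alternatives were another filter, scaling or tool (DESeq2 1.42.0, limma 3.58.1), a replicate block, fewer libraries, and TPM. Libraries with the same number in 2 groups did not deviate together (r from -0.04 to 0.01), so numbers were not taken as pairs.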

Additional observations from a re-analysis of the deposited data

How the results depend on the processing

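No shutoff gene passed under any alternative except Sag with the hairpin when no low-count filter was used. Counts of genes past the threshold depended on the tool and filter. With the hairpin, against 0, there were 93 without the filter, 183 with DESeq2, 2 with limma voom, 5 with limma on the deposited values, 1 with the replicate block and 0 to 2 with 1 library left out. With the vector, against 20, these were 111, 253, 37 and 48 in the first 4 settings, 6 with only the libraries compared, and 14 to 35 with 1 library left out. For the difference of the arms, against 4, they were 137, 208, 1 and 16, 2 with the filter of 50 counts in 3 libraries, 2 with DESeq2 size factors, 9 with the replicate block and 2 to 16 with 1 library left out. Between controls, against 14, they were 71 without the filter, 69 with DESeq2, 26 with limma on the deposited values and 11 to 15 with 1 library left out. Without pcDNA4c mCsnk2a1 1 the vector count was 35 and that for the difference 16. The cause was not tested.

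Signs held under every alternative for Sag, Rcvrn, Rgs9 and Gnb5 with the hairpin, at 0.64 to 1.16, 0.78 to 1.36, 0.32 to 1.06 and 0.49 to 2.40, and for all but Rgs9 with the vector. Fold changes near 0 turned sign. With the hairpin, Grk1 was -0.052 to 0.53 with 1 library left out, lowest without shRNA mCsnk2a1 2, -0.30 on coding TPM and -0.025 on all TPM. Rgs9bp was -0.024 with the stricter filter, -0.017 with only the libraries compared, -0.016 with the replicate block, -0.038 with DESeq2 size factors, -0.037 with DESeq2, -0.15 with library size alone, -0.35 on TPM, and -0.29 to 0.44 with 1 library left out. With the vector, Rgs9 was -0.17 with library size alone, -0.027 with voom and -0.26 to 0.35 with 1 library left out. For the difference of the arms, Grk1 was 0.030 with the stricter filter, 0.031 with the replicate block, 0.10 with DESeq2 and its size factors, 0.41 with limma on the deposited values and -0.28 to 0.35 with 1 library left out, and Rcvrn was 0.044 with limma on the deposited values. On coding and all TPM that difference was 0.0011 and 0.035 for Sag, 1.45 and 0.68 for Grk1, 0.46 on both for Rcvrn, 0.11 and 0.0047 for Rgs9, and 0.74 for Gnb5 on coding TPM only. Between controls, Grk1 was 0.025 with the stricter filter, 0.083 with DESeq2 and its size factors, 0.051 with the replicate block, 0.99 on coding TPM, 0.55 on all TPM and -0.22 to 0.19 with 1 library left out, Gnb5 was 0.60 and 0.12 on the 2 TPM scales, and Sag was -0.015 to 0.29 with 1 library left out. The TPM alternatives were chosen after the data were seen.

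Of the ratios to transducin and phosphodiesterase genes, those that separated their groups kept their sign with another pseudocount and with 1 library left out, and other denominators were not run. With 1 library left out, Sag ran from -0.095 to 0.18 and Rcvrn from -0.057 to 0.25 with the hairpin, Rcvrn from -0.085 to 0.55, Rgs9bp from -0.53 to 0.050 and Gnb5 from -0.12 to 0.23 with the vector, and Sag from -0.14 to 0.14 and Rgs9bp from -0.29 to 0.47 between controls.

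The replicate block changed no call of a shutoff gene. With 3 libraries a group and wide spread, the fold changes that did not pass cannot be told from 0 or from moderate differences.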

Other observations

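Other transcripts of the shutoff genes stood out in single libraries. Coding Sag transcripts held 96.0% to 97.5% of Sag TPM with shRNA mCsnk2a1, against 94.3% to 97.7% in shRNA Control, and 73.1% to 97.7% with pcDNA4c mCsnk2a1, against 85.0% to 91.5% in pcDNA4c Control. The lowest share was in pcDNA4c mCsnk2a1 2, the only library with the noncoding transcript Sag-205, at 113 TPM. The Grk1 retained-intron transcript Grk1-203 had 0.797, 15.7 and 0 TPM with shRNA mCsnk2a1, against 2.75, 1.34 and 0.159 TPM in shRNA Control, so its level in library 2 makes up most of that library's lead in Grk1. Coding Grk1 was 19.3 ± 2.65 TPM with shRNA mCsnk2a1 and 23.9 ± 5.46 TPM in shRNA Control, which overlapped (exact permutation p = 0.3), and 26.6 ± 11.5 TPM with pcDNA4c mCsnk2a1 and 12.0 ± 2.34 TPM in pcDNA4c Control, which overlapped as well (p = 0.2; SD, n = 3 each). The 2 control groups did not overlap in coding Grk1, which was 1.99-fold higher in shRNA Control (exact permutation p = 0.1). On all transcripts 11.7% of genes separated in that direction.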
